A study of Mus musculus with 15 samples.

Results

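Tankyrases and the other poly(ADP-ribose) polymerase (PARP) enzymes were followed at the transcript level in primary mouse articular chondrocytes. The set was chosen by name and holds 10 of the 24134 genes listed in each count table: the tankyrase genes *Tnks* and *Tnks2*, the DNA-damage PARPs *Parp1*, *Parp2* and *Parp3*, the further family members *Parp4*, *Parp6*, *Parp8* and *Parp16*, and *Parg*, whose product removes the modification. The comparisons ask whether other members of the family changed when the tankyrases were knocked down or inhibited.

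The chondrocytes were passage 0 cultures from the femoral condyles and tibial plateaus of ICR mice 4 to 5 days old, with no genetic modification given. In the siRNA set, 3 libraries came from cells transfected with control siRNA (siCtrl) and 3 from cells transfected with siRNAs against both *Tnks* and *Tnks2* (siTnks/2), at a time after transfection that the sources used here do not give. The drug set held 3 libraries per treatment, which lasted 108 h: DMSO as vehicle, or the tankyrase inhibitors XAV939 and IWR-1, each at 10 μM. The methods call the 3 libraries of a group biological replicates, without saying how many animals each pooled.

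PARP enzymes take ADP-ribose from NAD+ and attach it to proteins. Tankyrases and the DNA-damage PARPs PARP1 and PARP2 build chains of it, whereas most other members attach single units. Tankyrases mark targets such as axin, and the ubiquitin ligase RNF146 reads the chains and sends the target for degradation, while PARG cleaves the chains again. XAV939 occupies the nicotinamide pocket of the catalytic domain and IWR-1 the neighbouring induced pocket, so both act on the enzyme and not on its transcript.

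The siRNA strands are shown because they define which transcripts were targeted directly. The study lists several duplexes per gene and states that number 2 for *Tnks* and number 3 for *Tnks2* were used throughout. Strands are written 5′ to 3′ without their dTdT overhangs, and capitals mark the seed, bases 2 to 8 of the antisense strand.
Tnks sense: gucugucguugaguaccuu
Tnks antisense: aAGGUACAcaacgacagac
Tnks2 sense: gugucuacuuguaucacau
Tnks2 antisense: aUGUGAUAcaaguagacac
The *Tnks* site lies in the coding sequence in exon 14, at chr8:34855966-34855984 on the minus strand (GRCm38). The *Tnks2* site lies in the 3′ UTR in exon 27, at chr19:36892822-36892840 on the plus strand. The listed *Tnks* antisense strand differs from the complement of its sense strand by U8A, counted from the 5′ end of the antisense strand with the complement's base first, so the printed seed holds that base. The *Tnks2* strands differ at 0 positions.

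Neither duplex had a close match in another member. The best alignment of the 19-base *Tnks* sense strand had 5 mismatches in *Tnks2*, *Parp6* and *Parg* and 6 to 8 in the others, and that of the *Tnks2* strand had 6 to 9 mismatches in the 9 other genes. The 7 bases that pair with the listed *Tnks* seed (TGTACCT) occurred in the 3′ UTR of 9.64% of 20719 genes, and among the 10 members only in *Tnks*. Those of the *Tnks2* seed (TATCACA) occurred in 7.34%, and among the members only in *Tnks2*. With the complement of the *Tnks* sense strand the sequence would be AGTACCT, in the 3′ UTR of 6.07% of genes and of 0 members.

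Totals ran from 26857070 to 36615194 counts per library. The 9 chondrocyte markers, among them *Col2a1*, *Acan* and *Sox9*, summed to between 25830 and 195700 CPM (counts scaled to library size) in every library. The 2 erythroid markers were at 0 throughout, and the 7 leukocyte markers summed to at most 15.6 CPM. Fibroblast and synovial lining markers (5 genes) summed to 9186 to 12120 CPM with DMSO, 4302 to 6390 with XAV939 and 3278 to 5692 with IWR-1. The chondrocyte sum also moved with treatment, at 25830 to 35090 CPM with DMSO, 36080 to 54900 with XAV939, 86680 to 110900 with IWR-1, 80750 to 109700 with siCtrl and 117600 to 195700 with siTnks/2. The part of these markers in the values below was not tested, and in bulk RNA fewer cells of a type and less RNA per cell cannot be told apart. In the drug set, DMSO replicate 3 stood apart by transcript length: its median log2 deviation from the mean of the 9 libraries was -0.31 for 2985 genes with exons under 2 kb and 0.38 for 954 genes over 8 kb.

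The members lie on 6 chromosomes (GRCm38). *Parp3* (chr9:106470322-106476949, minus strand) and *Parp16* (chr9:65195353-65239224) share chromosome 9 with *Parp6*, and *Parp2* (chr14:50807841-50821301) shares chromosome 14 with *Parp4* and *Parg*. Exon totals ran from 1894 bases for *Parp2* to 9163 for *Tnks*.

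All 10 members passed the filter on low counts in every comparison. Per kb of exon, *Parp3*, *Parp1* and *Tnks2* were the highest in siCtrl, at 21.3 ± 3.6, 20.7 ± 0.64 and 18.2 ± 0.36 CPM per kb (SD, n = 3). *Parp2* followed at 10.3 ± 0.53, and *Tnks* at 7.18 ± 0.71 lay next to *Parp6* at 6.95 ± 0.18, with overlapping ranges. *Parp16* was the lowest at 1.32 ± 0.10. With DMSO, *Tnks2* led at 19.97 ± 2.97 and *Parp16* was again lowest at 1.52 ± 0.12, while *Parp8* was at 16.1 ± 0.14 against 6.08 ± 0.90 in siCtrl. Within siCtrl the ranges of *Parp3* and *Parp1*, of *Tnks* and *Parp6*, and of *Parp8* with each of *Tnks*, *Parp6* and *Parg* overlapped.

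**Figure D1:**
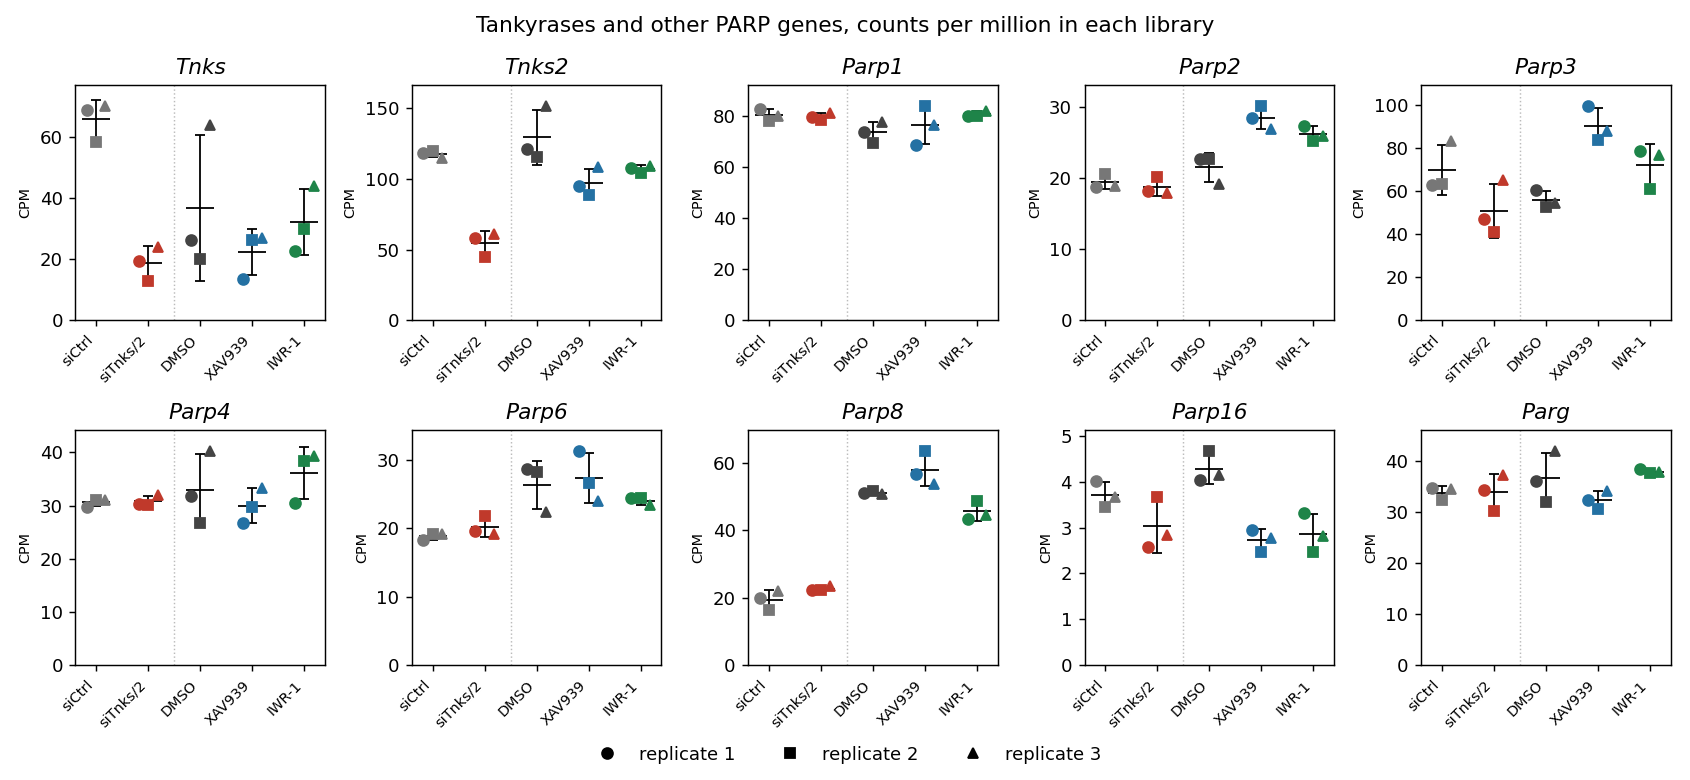
CPM (vertical axes, from 0) of each of the 10 genes in the 15 libraries, by group, with the mean and SD (n = 3) as bars and the replicate number as the symbol. *Tnks* and *Tnks2* are lower in all 3 siTnks/2 libraries, and *Tnks* in DMSO replicate 3 (64.1 CPM) lies far above the other DMSO libraries.

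Knockdown lowered both tankyrase transcripts and no other member passed the test. *Tnks*, which encodes the larger enzyme, was at 69.0, 58.4 and 70.1 CPM in siCtrl replicates 1 to 3 and at 19.5, 12.7 and 24.0 CPM in siTnks/2. The groups were well separated. On the log2 scale *Tnks* changed by -1.81 (SE 0.22; adjusted p = 0.00569 in edgeR's quasi-likelihood test), which left 28.5% of the control level. *Tnks2* was at 118, 120 and 115 CPM in siCtrl and at 58.2, 44.9 and 61.2 CPM in siTnks/2, again without overlap. It fell by 1.104 on the log2 scale (SE 0.11, adjusted p = 0.00384), to 46.5% of control. Both calls held in all 16 alternatives.

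Thus 2 of 10 members were called after knockdown, 0 higher and 2 lower, where 18% of the 13672 genes tested were called (10.4% higher and 7.61% lower). The blocked fit called 3, adding *Parp3*, and 34.6% of genes. The groups did not overlap for 4 members, namely the tankyrases, *Parp6* and *Parp8*, against 43.8% of all genes. *Tnks* contributed less of the tankyrase transcript after knockdown: the ratio of *Tnks* to *Tnks2* per kb of exon lay between 0.345 and 0.431 in siCtrl and between 0.200 and 0.278 in siTnks/2.

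With the inhibitors *Tnks2* fell under XAV939, and *Tnks* was called with neither. *Tnks* was at 26.2, 20.02 and 64.1 CPM with DMSO, against 13.6, 26.4 and 26.9 CPM under XAV939 and 22.6, 29.9 and 44.0 CPM under IWR-1. All 3 groups overlapped. The log2 fold change was -0.72 (95% interval -1.65 to 0.21, adjusted p = 0.263) with XAV939 and -0.19 (-1.11 to 0.73, adjusted p = 0.754) with IWR-1. These values rested on DMSO replicate 3: without it they were -0.07 and 0.47. The wide intervals do not show that the inhibitors left *Tnks* unaffected.

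*Tnks2* was at 121, 116 and 151 CPM with DMSO and at 94.7, 88.9 and 108 CPM with XAV939, so all XAV939 libraries lay below all DMSO libraries. It fell by 0.41 on the log2 scale (SE 0.12, adjusted p = 0.0394). With IWR-1 it was at 108, 104 and 109 CPM, also below every DMSO library, at a log2 fold change of -0.27 (95% interval -0.54 to -0.00, adjusted p = 0.105). With the replicate number as a block the IWR-1 value was -0.26 and the adjusted p 0.0300. The XAV939 call was made in 11 of 20 alternatives and in 2 of the 9 that left out 1 library (those without DMSO replicate 2 or XAV939 replicate 3), where the values ran from -0.51 to -0.29 and the adjusted p from 0.0285 to 0.112.

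Long transcripts as a whole were lower with XAV939. The median log2 fold change was -0.18 over genes with exons over 8 kb, where *Tnks* (9163 bases) belongs, -0.13 for 6 to 8 kb, where *Tnks2* (6481 bases) belongs, and 0.15 under 2 kb, where *Parp2* (1894 bases) belongs. With IWR-1 the same medians were -0.03, -0.06 and 0.06. With the trend on exon length removed, an alternative added after the data were seen, the *Tnks* value with XAV939 was -0.48 (adjusted p = 0.296), that of *Tnks2* was -0.30 (adjusted p = 0.0203) and that of *Parp2* was 0.32 (adjusted p = 0.0149).

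**Figure D2:**
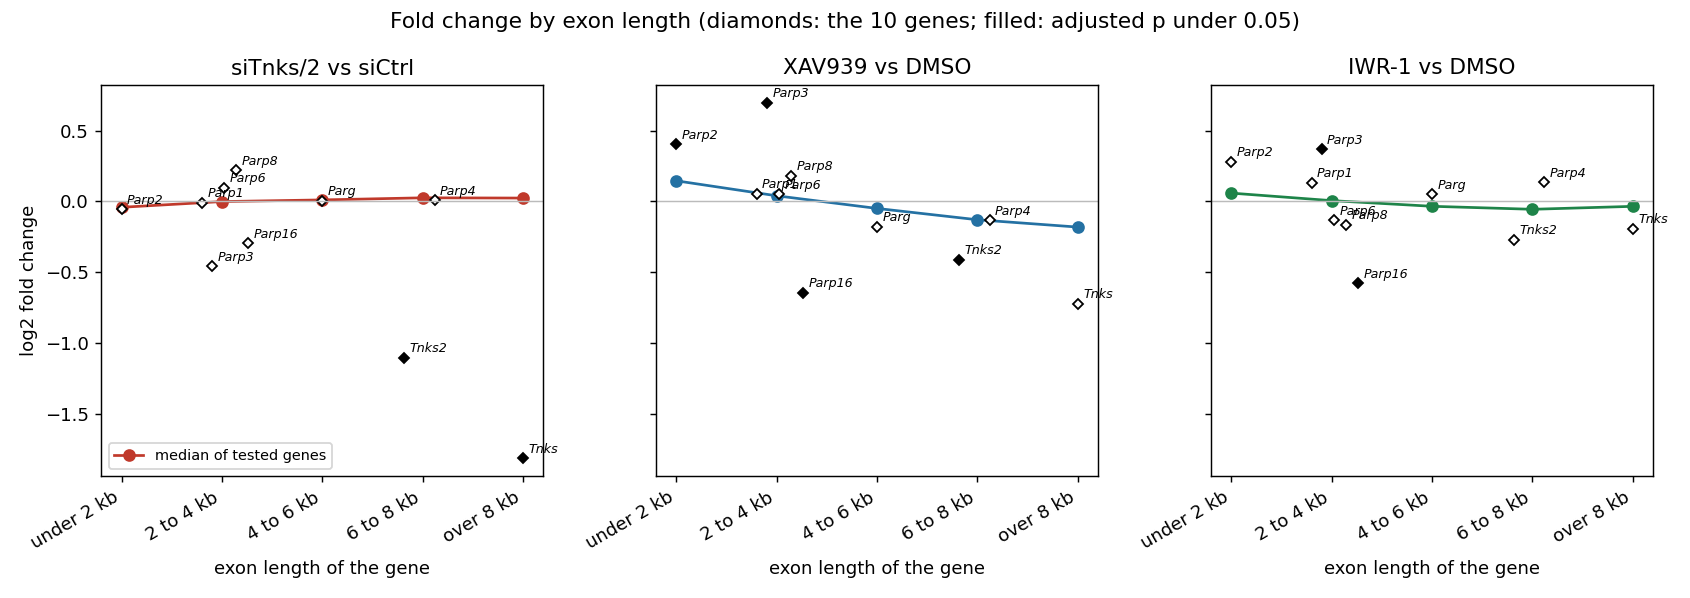
Log2 fold change (vertical axis) against exon length class (horizontal axis) in the 3 comparisons with a control. Coloured points are medians over all tested genes of a class and diamonds the 10 members, filled when called and spread sideways within their class. With XAV939 the medians run from 0.15 under 2 kb to -0.18 over 8 kb, with DMSO replicate 3, which stood apart by transcript length, among the controls.

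*Parp3*, whose product acts in the repair of DNA double-strand breaks, was the DNA-damage PARP called with both inhibitors. Its level was at 62.9, 63.2 and 83.2 CPM in siCtrl and at 46.9, 40.8 and 64.9 CPM in siTnks/2, with overlap by 1 knockdown library. Within pairs of the same replicate number the knockdown value was lower in 3 of 3. The log2 fold change was -0.46 (95% interval -0.90 to -0.01, adjusted p = 0.136), whereas fitting the replicate number as a block gave -0.47 and an adjusted p of 0.00656. The call was also made without siTnks/2 replicate 3, at -0.67 (adjusted p = 0.0356).

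With the inhibitors *Parp3* was higher. It was at 60.6, 52.5 and 54.2 CPM with DMSO, against 99.4, 83.8 and 88.0 CPM under XAV939 and 78.4, 60.8 and 76.8 CPM under IWR-1. Neither inhibitor group overlapped DMSO, and the lowest IWR-1 library exceeded the highest DMSO library by little. It rose by 0.70 with XAV939 (log2, SE 0.12, adjusted p = 0.00321), a call made in all 20 alternatives. It rose by 0.37 with IWR-1 (SE 0.12, adjusted p = 0.0348), a call lost without IWR-1 replicate 1 (0.30), DMSO replicate 2 (0.32), DMSO replicate 3 (0.34) or IWR-1 replicate 3 (0.30).

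*Parp3* lies on the minus strand of chromosome 9 and its span overlaps *Rrp9*, a ribosomal RNA processing gene on the plus strand, without exon overlap. *Rrp9* was at 13.1, 14.6 and 11.2 CPM with DMSO, against 20.4, 20.5 and 17.9 CPM under XAV939 and 29.9, 28.0 and 25.6 CPM under IWR-1. It rose by 0.60 (adjusted p = 0.00844) and 1.103 (adjusted p = 7.23e-05) on the log2 scale, and its knockdown value was -0.17 (adjusted p = 0.259). Libraries were made with a stranded kit, but the strand setting and annotation of the counting are not given in the sources used here. In the annotation used here the exons of the pair overlap by 0 bases, and the annotation used for counting may differ. The part of *Rrp9* in the *Parp3* values was not tested.

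*Parp2*, whose product works beside PARP1 in single-strand break repair, was at 22.7, 22.7 and 19.2 CPM with DMSO, against 28.5, 30.1 and 27.0 CPM under XAV939 and 27.4, 25.3 and 25.9 CPM under IWR-1. Every inhibitor library lay above every DMSO library. It rose by 0.40 with XAV939 (log2, SE 0.11, adjusted p = 0.0243). With IWR-1 the value was 0.28 (95% interval 0.05 to 0.51, adjusted p = 0.0590), or 0.28 with an adjusted p of 0.0242 in the blocked fit. The XAV939 call was lost without DMSO replicate 1 (0.44), XAV939 replicate 1 (0.41), XAV939 replicate 2 (0.36) or DMSO replicate 3 (0.32).

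After knockdown *Parp2* differed little from control. It was at 18.8, 20.6 and 18.9 CPM in siCtrl and at 18.1, 20.1 and 17.9 CPM in siTnks/2, with overlapping ranges. The log2 fold change was -0.05 (95% interval -0.25 to 0.14, adjusted p = 0.682).

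Some proliferation genes also rose with XAV939. Of 10 such genes, 4 were higher and 0 lower, where 7.57% of all genes were higher and 9.85% lower, and the other 6 did not pass. Those called included *Mcm2* (log2 0.92, adjusted p = 0.00296), *Mcm5* (0.77, adjusted p = 0.00473) and *Mcm6* (0.55, adjusted p = 0.00599), which encode subunits of the replicative helicase, and the summed level was 691 to 856 CPM with DMSO and 839 to 1020 CPM with XAV939. With IWR-1, *Mcm2* (1.12, adjusted p = 0.000301) and *Mcm6* (0.51, adjusted p = 0.00355) rose and *Ccnb1*, a mitotic cyclin, fell by 0.51 (adjusted p = 0.0167), a call lost without IWR-1 replicate 1 or 2 (-0.65 to -0.39 over left-out libraries). The blocked fit called 4 higher and 1 lower with XAV939 and 2 higher and 2 lower with IWR-1. After knockdown 0 of 10 were called by edgeR, with 2 at an unadjusted p under 0.05 and 2 lower in the blocked fit, where 34.6% of all genes were called. The median log2 fold change of the list was -0.86 after knockdown, 0.21 with XAV939 and -0.08 with IWR-1. After knockdown the sum was 199 to 547 CPM (median 493) against 657 to 698 CPM in siCtrl. The lowest siTnks/2 library lay far below the other siTnks/2 libraries. The part of proliferation in the *Parp2* values was not tested.

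*Parp1*, the main sensor of DNA breaks in the family, was nearly level in all groups. The lowest of the 15 libraries was at 68.8 CPM (XAV939 replicate 1) and the highest at 83.9 CPM (XAV939 replicate 2). Its log2 fold change was -0.01 (95% interval -0.13 to 0.11) after knockdown, 0.05 (-0.16 to 0.27) with XAV939 and 0.13 (-0.08 to 0.35) with IWR-1. The adjusted p-values were 0.914, 0.745 and 0.328.

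*Parp16* encodes a membrane-anchored enzyme of the endoplasmic reticulum and was the scarcest member, with 66 to 160 counts per library. It was at 4.03, 4.66 and 4.15 CPM with DMSO, against 2.94, 2.48 and 2.78 CPM under XAV939 and 3.31, 2.47 and 2.81 CPM under IWR-1. Both inhibitor groups lay below DMSO without overlap. It fell by 0.64 with XAV939 (log2, SE 0.16, adjusted p = 0.0220) and by 0.58 with IWR-1 (SE 0.16, adjusted p = 0.0179), to 64.0% and 67.1% of the DMSO level. The XAV939 call was lost without DMSO replicate 1 (-0.69), DMSO replicate 2 (-0.58) or XAV939 replicate 2 (-0.58), and the IWR-1 call without DMSO replicate 2 (-0.51) or IWR-1 replicate 2 (-0.48).

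In the siRNA set *Parp16* was at 4.01, 3.44 and 3.67 CPM with siCtrl and at 2.57, 3.67 and 2.84 CPM with siTnks/2. siTnks/2 replicate 2 fell within the control range. The log2 fold change was -0.29 (95% interval -0.71 to 0.12, adjusted p = 0.274).

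*Parp8*, a mono-ADP-ribosyltransferase, was at 19.8, 16.3 and 22.0 CPM in siCtrl and at 22.2, 22.2 and 23.4 CPM in siTnks/2. It was at 51.2, 51.6 and 50.8 CPM with DMSO, against 56.8, 63.4 and 53.9 CPM under XAV939 and 43.4, 48.9 and 44.7 CPM under IWR-1. In each comparison the groups were separate but the change was small. The log2 fold changes were 0.22 (95% interval -0.05 to 0.49, adjusted p = 0.213) after knockdown, 0.18 (-0.03 to 0.39, adjusted p = 0.217) with XAV939 and -0.17 (-0.38 to 0.04, adjusted p = 0.206) with IWR-1.

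*Parp6*, another mono-ADP-ribosyltransferase, was between 18.3 and 21.7 CPM in the siRNA set and between 22.3 and 31.2 CPM in the drug set. *Parp4*, the vault-particle PARP, was between 29.8 and 32.0 CPM in the siRNA set and between 26.7 and 40.2 CPM in the drug set. Neither was called in any comparison. The *Parp6* log2 fold changes were 0.10 (95% interval -0.09 to 0.28), 0.05 (-0.24 to 0.34) and -0.13 (-0.42 to 0.15) for knockdown, XAV939 and IWR-1, and those of *Parp4* were 0.01 (-0.13 to 0.15), -0.13 (-0.49 to 0.22) and 0.13 (-0.22 to 0.49).

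*Parg*, which breaks down the chains, was at 34.7, 32.3 and 34.5 CPM in siCtrl and at 34.4, 30.2 and 37.3 CPM in siTnks/2. With DMSO it was at 36.0, 31.9 and 41.9 CPM, with XAV939 at 32.3, 30.5 and 34.2 CPM and with IWR-1 at 38.5, 37.7 and 37.8 CPM. No inhibitor or knockdown group was separate from its control. The log2 fold changes were 0.01 (95% interval -0.20 to 0.21, adjusted p = 0.973), -0.18 (-0.42 to 0.07, adjusted p = 0.299) and 0.05 (-0.19 to 0.30, adjusted p = 0.751).

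**Figure D3:**
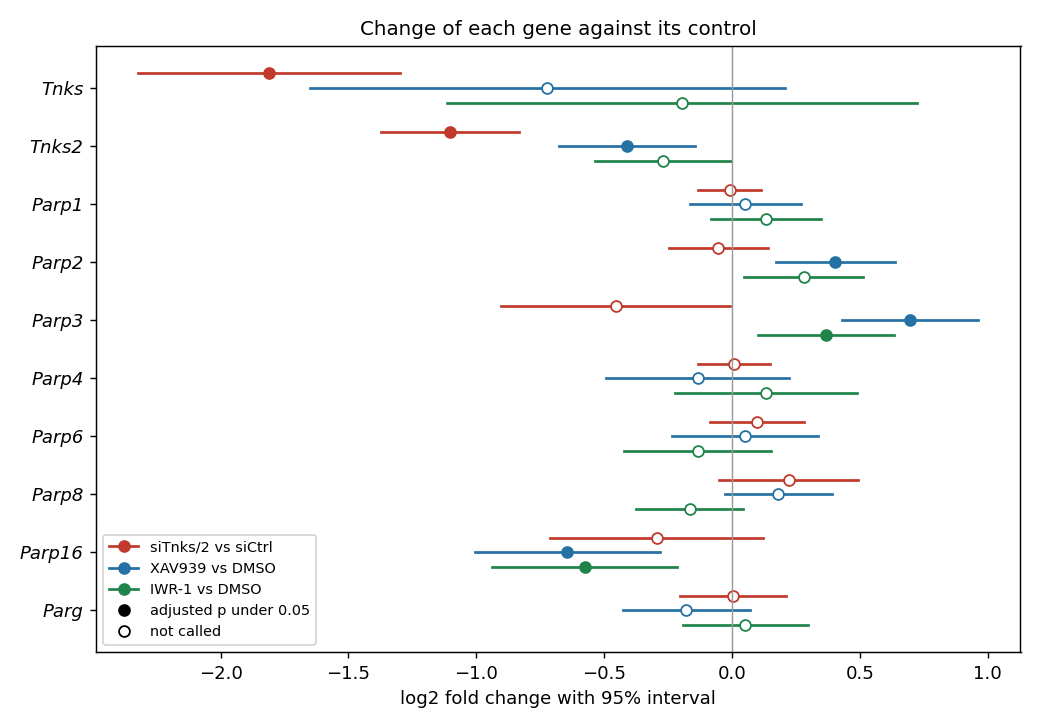
Log2 fold change (horizontal axis) with its 95% interval for each of the 10 genes against the matching control, filled when the adjusted p-value was under 0.05. Filled points are *Tnks* and *Tnks2* for knockdown, *Tnks2*, *Parp2*, *Parp3* and *Parp16* for XAV939, and *Parp3* and *Parp16* for IWR-1; the inhibitors share the DMSO libraries.

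The XAV939 and IWR-1 comparisons share their DMSO libraries, so their values are not independent. In total, XAV939 changed 4 of 10 members, 2 higher and 2 lower, where 17.4% of 13873 genes were called (7.57% higher and 9.85% lower; 33.4% in the blocked fit, which called the same count), and 5 members did not overlap DMSO against 33.2% of genes. IWR-1 changed 2 of 10, 1 higher and 1 lower, where 36.4% of genes were called (16.2% higher and 20.2% lower), and 6 did not overlap DMSO against 51.1%. In the blocked fit the IWR-1 count was 4, with *Tnks2* and *Parp2* added, against 47.5% of genes. The median log2 fold change of the members was -0.03 after knockdown, -0.04 with XAV939 and -0.04 with IWR-1, against medians over all tested genes of -0.00, 0.02 and 0.01. In the edgeR test no member passed the study's own limits, a fold change over 3 with an adjusted p-value under 1e-05, in any comparison. The study applied these limits to DESeq2 results. Over the alternative fits, DESeq2 among them, the *Tnks* log2 value after knockdown ran from -2.03 to -1.60. Its smallest adjusted p in those fits was 1.95e-14, so *Tnks* passed both limits outside the main test. Those limits were passed by 0 genes after knockdown, 1 gene (0.00721%) with XAV939 and 145 genes (1.05%) with IWR-1 in the edgeR test.

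XAV939 and IWR-1 bind different pockets of the same enzymes and were given at the same dose and time, so the 10 members were compared between them as 10 pairs, with p-values adjusted over all 13873 genes. *Parp8* was the 1 member called (17.6% of genes were called, and 30.7% in the blocked fit), lower with IWR-1 than with XAV939 by 0.35 on the log2 scale (-0.35, SE 0.10, adjusted p = 0.0296). That call was lost in 6 of the 9 fits that left out a library (without DMSO replicate 1, XAV939 replicate 1 or 2, or any IWR-1 replicate), at values from -0.40 to -0.28. Groups did not overlap for 3 members, against 37.6% of genes. Of these, *Parp3* was at -0.33 (95% interval -0.59 to -0.06, adjusted p = 0.0873), and the blocked fit gave -0.33 with an adjusted p of 0.0127. *Parg* was higher with IWR-1 in every library, at 0.23 (-0.02 to 0.48, adjusted p = 0.190).

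For the other 7 members the groups overlapped. *Tnks* differed by 0.53 (95% interval -0.40 to 1.46), *Tnks2* by 0.14 (-0.13 to 0.41), *Parp2* by -0.12 (-0.36 to 0.11) and *Parp16* by 0.07 (-0.30 to 0.44) on the log2 scale. *Parp1* differed by 0.08 (-0.14 to 0.29), *Parp4* by 0.27 (-0.09 to 0.62) and *Parp6* by -0.18 (-0.47 to 0.10). An adjusted p above the limit does not show that the inhibitors act alike on these genes.

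The effect of each inhibitor was then set against the effect of knockdown with an interaction term over all 15 libraries. The sets were separate experiments with separate controls. Of the members, 3 of 10 had an XAV939 effect that differed from the knockdown effect, where 13.5% of 14271 genes did: *Parp3* (difference 1.14, SE 0.23, adjusted p = 0.00521), *Tnks2* (0.68, SE 0.17, adjusted p = 0.0195) and *Parp2* (0.44, SE 0.13, adjusted p = 0.0396). All 3 were higher with the inhibitor relative to knockdown, as were 5.4% of genes, against 8.07% that were lower. The siRNAs target *Tnks* and *Tnks2* themselves, so the direction of their differences was set by the design. *Parp3* and *Parp2* are the calls outside the targets. The blocked fit gave 4 members and 28.2% of genes. *Tnks* differed by 1.07 (95% interval -0.10 to 2.24, adjusted p = 0.208), or by 1.20 with an adjusted p of 0.0164 in the blocked fit and by 1.75 with an adjusted p of 0.0203 without DMSO replicate 3. The *Tnks2* call was lost without DMSO replicate 1 (0.63, adjusted p = 0.0526), and the *Parp2* call in 9 of 12 fits that left out a library (all but siTnks/2 replicate 2, DMSO replicate 2 and XAV939 replicate 3), at values from 0.37 to 0.51 with adjusted p from 0.0310 to 0.0901.

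With IWR-1, 3 of 10 members differed, all higher, where 24.4% of genes did (10.5% higher and 13.9% lower): *Tnks2* (0.82, SE 0.17, adjusted p = 0.00324), *Parp3* (0.81, SE 0.23, adjusted p = 0.0169) and *Tnks* (1.60, SE 0.55, adjusted p = 0.0453). *Tnks* and *Tnks2* are again the siRNA targets, so only *Parp3* is a call outside them, and the count is no result about the family. The *Tnks* call was lost in 9 of the 12 fits that left out a library (all but siTnks/2 replicate 3, DMSO replicate 3 and IWR-1 replicate 1), at values from 1.28 to 2.28, and the *Parp3* call without siCtrl replicate 3 (0.67, adjusted p = 0.0501). In the blocked fit *Parp2* (0.33, adjusted p = 0.0415) and *Parp8* (-0.41, adjusted p = 0.0188) were added, against 36.3% of genes.

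**Figure D4:**
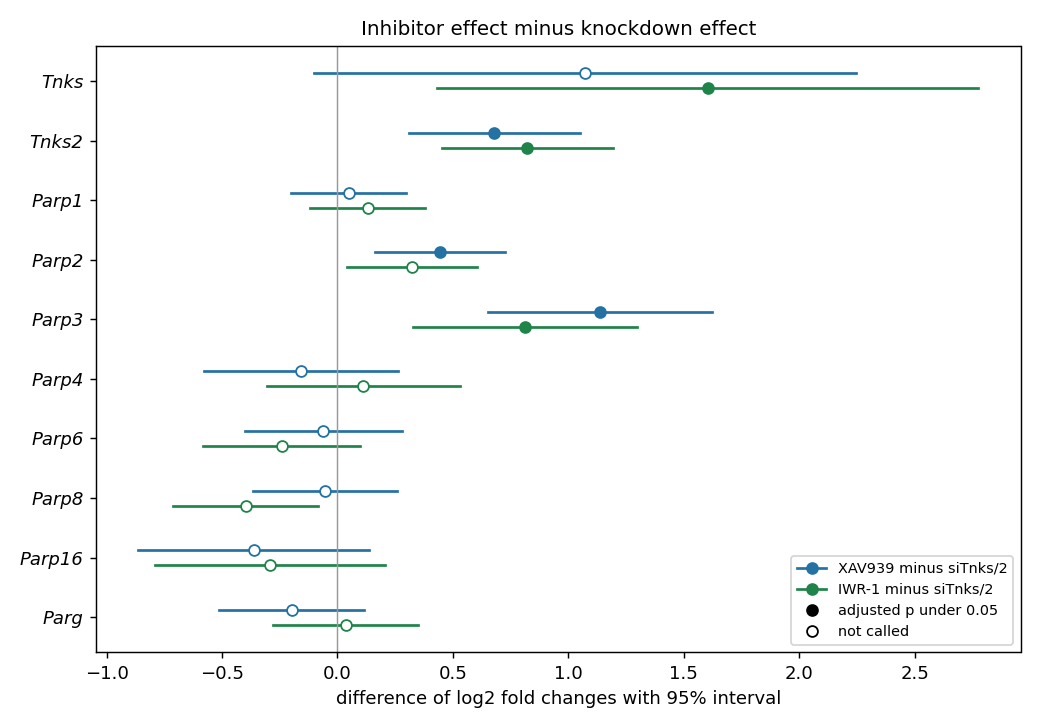
Inhibitor log2 fold change minus knockdown log2 fold change (horizontal axis) with its 95% interval for the 10 genes, filled when the adjusted p-value was under 0.05. *Tnks2* and *Parp3* are filled for both inhibitors, *Parp2* for XAV939 and *Tnks* for IWR-1. *Tnks* and *Tnks2* are the targets of the siRNAs.

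The remaining 7 ADP-ribosyltransferases of the family, several of them induced by interferon, were read as background. After knockdown 1 of 7 was higher and 0 lower, where 10.4% of all genes were higher and 7.61% lower. *Tiparp*, a mono-ADP-ribosyltransferase induced by the aryl hydrocarbon receptor, went from 50.7, 55.8 and 52.3 CPM in siCtrl to 66.6, 65.7 and 65.1 CPM (log2 0.31, adjusted p = 0.0153). With DMSO it was at 101, 102 and 104 CPM, against 73.4, 55.0 and 87.3 CPM under XAV939 and 70.1, 75.9 and 75.2 CPM under IWR-1. It fell by 0.51 with XAV939 (adjusted p = 0.0337) and by 0.47 with IWR-1 (adjusted p = 0.0246), so *Tiparp* was higher after knockdown and lower with both inhibitors. In the blocked fit 2 of 7 were higher and 2 lower after knockdown, where 34.6% of all genes were called, and 2 were higher and 1 lower with XAV939, where 33.4% were. With 1 library left out the *Tiparp* values ran from 0.29 to 0.35, -0.69 to -0.35 and -0.50 to -0.44 for knockdown, XAV939 and IWR-1, and the call was lost for knockdown without siCtrl replicate 1 or 3 or siTnks/2 replicate 1, for XAV939 without any DMSO replicate, XAV939 replicate 1 or IWR-1 replicate 2, and for IWR-1 without DMSO replicate 1 or IWR-1 replicate 1 or 2.

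With XAV939, *Parp12*, an interferon-induced member, rose from 10.6, 9.87 and 9.71 CPM to 13.7, 13.5 and 15.2 CPM (log2 0.49, adjusted p = 0.0112). With IWR-1, *Zc3hav1*, the antiviral zinc-finger member, rose by 0.72 (adjusted p = 0.0217) and *Parp9*, a partner of the ubiquitin ligase DTX3L, fell by 0.72 (adjusted p = 0.000820). The summed level of 10 interferon-stimulated genes was 64.5 to 73.0 CPM with DMSO, 91.4 to 94.7 with XAV939 and 77.9 to 82.5 with IWR-1. *Ifit3* rose with XAV939 (log2 1.88, adjusted p = 0.00147) and with IWR-1 (3.02, adjusted p = 1.73e-05). With IWR-1, *Irf7* (-0.76, adjusted p = 0.0106), *Ifit1* (-0.80, adjusted p = 0.0277) and *Isg15* (-0.66, adjusted p = 0.0367) were among 4 of the list that fell. Of its 9 tested genes, 2 were higher and 4 lower with IWR-1, where 16.2% of all genes were higher and 20.2% lower. Left-out libraries ended the calls of *Zc3hav1* (0.59 to 0.98; DMSO replicate 1 or 2, IWR-1 replicate 2 or 3), *Ifit1* (-0.96 to -0.65; DMSO replicate 1, IWR-1 replicate 2 or 3) and *Isg15* (-0.81 to -0.53; DMSO replicate 1 or 2, IWR-1 replicate 1 or 3). In the siRNA set the sum of the 10 interferon-stimulated genes was 85.3 to 198 CPM in siCtrl and 79.0 to 145 CPM after knockdown. There 0 of the 10 genes were called by edgeR, where 18% of all genes were, with 0 at an unadjusted p under 0.05. The blocked fit called 2, where 34.6% of all genes were called. The part of interferon signalling in the values of *Parp9* and *Parp12* was not tested.

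Of 4 aryl hydrocarbon receptor targets, 2 were higher and 0 lower after knockdown, where 10.4% of all genes were higher and 7.61% lower. These were *Cyp1a1* (log2 3.76, adjusted p = 0.00384) and *Nqo1* (0.67, adjusted p = 0.00508). *Cyp1a1* stood at 0.124, 0.185 and 0.0918 CPM in siCtrl and 1.39, 1.57 and 2.51 CPM in siTnks/2. In the drug set 3 of the list were tested. With XAV939, 2 were higher and 0 lower, where 7.57% of all genes were higher and 9.85% lower. *Ahrr*, the receptor's repressor, rose by 2.86 (adjusted p = 7.17e-05) and *Nqo1* by 0.55 (adjusted p = 0.0489). With IWR-1, *Ahrr* rose by 1.04 (adjusted p = 0.00721) and *Cyp1b1* fell by 1.63 (adjusted p = 3.30e-05), where 16.2% of all genes were higher and 20.2% lower. The *Nqo1* call with XAV939 was lost in 7 of the 9 fits that left out a library (0.28 to 0.68), the exceptions being those without DMSO replicate 3 or XAV939 replicate 2.

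Of 8 tested hydrolases and processing enzymes of ADP-ribose, 0 were called after knockdown and 0 with XAV939 by edgeR, where 18% and 17.4% of all genes were called, with 1 and 2 at an unadjusted p under 0.05 and 1 and 2 called in the blocked fit. Their median log2 fold changes were 0.08 after knockdown, 0.10 with XAV939 and 0.08 with IWR-1. With IWR-1 the ADP-ribose pyrophosphatase gene *Nudt5* rose by 0.37 (log2, adjusted p = 0.0153). Among 9 partner and poly(ADP-ribose)-binding genes, *Polb*, which encodes DNA polymerase beta, rose by 0.47 after knockdown (adjusted p = 0.0154), 0 were called with XAV939 (1 at an unadjusted p under 0.05 and 0 in the blocked fit), and the DNA ligase gene *Lig3* (0.42, adjusted p = 0.00324) and the remodeller gene *Chd1l* (0.48, adjusted p = 0.0195) rose with IWR-1, where 16.2% of all genes were higher. The blocked fit added 1 lower partner gene with IWR-1. Calls were lost for *Nudt5* without IWR-1 replicate 1 (0.32), for *Polb* without siTnks/2 replicate 1 or siCtrl replicate 2 or 3 (0.41 to 0.53 over left-out libraries) and for *Chd1l* without DMSO replicate 1 or IWR-1 replicate 2 or 3 (0.39 to 0.53).

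Several genes of NAD supply and use fell with the inhibitors. Of 12 tested, 1 was higher and 1 lower after knockdown, 0 higher and 3 lower with XAV939, and 0 higher and 6 lower with IWR-1, where 7.61%, 9.85% and 20.2% of all genes were lower. In the blocked fit the counts were 1 higher and 3 lower after knockdown, 1 higher and 4 lower with XAV939, and 0 higher and 7 lower with IWR-1, where 34.6%, 33.4% and 47.5% of all genes were called. *Nadk2*, which encodes the mitochondrial NAD kinase, went from 45.2, 41.9 and 43.7 CPM with DMSO to 17.8, 16.2 and 21.0 CPM under XAV939 and 20.5, 21.0 and 19.7 CPM under IWR-1. It fell by 1.25 (adjusted p = 8.33e-05) and 1.09 (adjusted p = 3.41e-05), and by 0.55 after knockdown (adjusted p = 0.0279). *Bst1*, which encodes an NAD glycohydrolase, fell by 1.46 (adjusted p = 0.00173) and 3.15 (adjusted p = 7.64e-06) with the inhibitors. *Nampt*, the rate-limiting enzyme of NAD salvage, fell by 0.53 with XAV939 (adjusted p = 0.0153), and *Nmrk1* fell by 0.68 with IWR-1 (adjusted p = 0.00808). *Nmnat2* rose by 2.73 after knockdown (adjusted p = 0.00949). Its control level was very low, ranging over the siCtrl libraries between 0.111 and 0.398 CPM. The *Nadk2* call after knockdown was lost without any siCtrl replicate or siTnks/2 replicate 1 (-0.63 to -0.43), and the *Nampt* call without XAV939 replicate 1 (-0.48).

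The genes closest to *Tnks* in their pattern over the 9 drug libraries, by the root-mean-square difference of log2 CPM (pseudocount 1) after centring each gene, were *Ccnt1* (0.116), *Zbtb38* (0.122) and *Pdpr* (0.122), where the pattern of *Tnks* itself had a root-mean-square of 0.584 and the median distance over 13872 genes was 0.640. *Ccnt1*, a cyclin of transcription elongation, was likewise highest in DMSO replicate 3, at 17.1 CPM against 5.21 and 3.64 CPM in the other DMSO libraries. Those closest to *Tnks2* were *Arhgap12* (0.0390), *Bmpr1a* (0.0404) and *Agps* (0.0441), while *Tnks* and *Tnks2* lay 0.472 apart. The libraries share depth and the length trend described above, and the distances are a description with no test.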

How the data were processed

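Upstream, the authors used Trimmomatic 0.32 for trimming, TopHat2 2.0.13 for alignment to mm10 and HTSeq 0.6.1p1 for counting by gene (versions from the submitters' processing notes); the annotation and strand setting are not given in the sources used here. The deposited values are raw counts for 24134 Entrez gene IDs, of which 24051 matched a RefSeq symbol. Counts were fitted per set (13672 and 13873 genes after filterByExpr, TMM scaling) with the edgeR 4.0.16 quasi-likelihood test in R 4.3.3, with Benjamini-Hochberg adjustment over all genes tested and a limit of 0.05; the interaction used 14271 genes. DESeq2 1.42.0 was an alternative, beside other scalings, filters, the block, left-out libraries and, added after the data were seen, removal of exon-length or GC trends. CPM are edgeR values after TMM. Exon lengths are GENCODE M21 basic (GRCm38).

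Whether replicate numbers pair libraries was checked: residual correlations were 0.487 to 0.554 in 3 siRNA pairs and 0.153 to 0.680 in 9 drug pairs, all above 0.1, so blocked values are given where they change a call. Between libraries of different numbers they were -0.469 to 0.137 in 6 siRNA pairs and -0.644 to 0.477 in 18 drug pairs. The drug ranges overlap, so pairing was less clear there. DMSO replicate 2 was at 0.477 with IWR-1 replicate 1 but at 0.322 with IWR-1 replicate 2. The replicate numbers come from the sample titles.

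Named genes were the 10 members and, from each list, at most 3 called genes per direction, lowest adjusted p first, in every comparison with a control; 1 gene that the rule picks is not reported here. Members and lists were chosen with earlier results of these data known. Replicates of a group differed beyond counting noise (chi-square per degree of freedom at least 8.05). The fits were also run on simulated counts, drawn with the same dispersion for every gene and no effect shared by libraries of the same number. Those runs do not cover the spread between replicates seen here. Reads carry no molecular identifiers.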

Additional observations from a re-analysis of the deposited data

Results flagged for a closer look

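The results below were picked out because the effect of an inhibitor differed from the effect of knockdown in the interaction test. With XAV939 the differences in log2 fold change were 0.68 for *Tnks2*, 0.44 for *Parp2* and 1.14 for *Parp3*. With IWR-1 they were 1.60 for *Tnks*, 0.82 for *Tnks2* and 0.81 for *Parp3*. For *Tnks* and *Tnks2* the siRNAs target the measured transcripts themselves. The siRNA and drug sets also differ in exposure and controls, and these cannot be told apart from the kind of perturbation.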

How the results depend on the processing

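Alternatives were other scalings (RLE, upper quartile), filters, DESeq2, a block on the replicate number, fits restricted to both groups and leaving out each library. Removing the trend on exon length or on GC content, alone or with the block, was added after the data were seen. Over 1200 comparisons of a member with its alternatives, 1089 kept direction and side of the limit, 52 lost the call, 31 gained one and 28 changed sign. Signs were read from rounded values, so very small sign changes count as kept. *Parp1* with XAV939 was 0.05 in the main fit, -0.0019 with the GC trend removed and -0.0014 with the block added, and was counted as kept. The cause was not tested.

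The count of members called with XAV939 was 2 in the fit of only both groups. With IWR-1 it was 4 with the replicate block, with the length trend removed, and with the block and either trend removed. Between the inhibitors it was 0 without a filter (2334 genes of all were then called) and 2 with the block, alone or with either trend removed. For IWR-1 against knockdown the block gave 5. The block changed no other member call than those printed beside the results. Leaving out 1 library gave 2 to 3 for knockdown, 1 to 4 for XAV939, 0 to 3 for IWR-1 (0 without DMSO replicate 2), 0 to 1 between the inhibitors, and 1 to 3 and 2 to 3 for the differences of XAV939 and IWR-1 from knockdown. Over all genes the block moved the calls from 2459 to 4727 for knockdown, from 2416 to 4630 for XAV939, from 2442 to 4258 between the inhibitors and from 1922 to 4018 for XAV939 against knockdown. The knockdown count was as low as 608 without siCtrl replicate 1, and that of XAV939 was 1569 in the fit of only both groups and 1322 without DMSO replicate 1.

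None of the values counted as changing sign was called. After knockdown *Parp1* was 0.0204 without siCtrl replicate 1. *Parp4* was -0.0115 with the length trend removed, -0.0112 with the block added and -0.0188 without siTnks/2 replicate 3. *Parg* was -0.0148 (length) and -0.007 (GC), -0.0161 and -0.0089 with the block added, -0.0262 without siCtrl replicate 2 and -0.0665 without siTnks/2 replicate 3. With XAV939 *Parp1* was -0.0176 without XAV939 replicate 2, *Parp4* 0.0222 and *Parp6* -0.0669 without DMSO replicate 3, and *Parp6* -0.0564 without XAV939 replicate 1. With IWR-1 *Tnks* was 0.47 without DMSO replicate 3 and *Parg* -0.0387 without DMSO replicate 2. Between the inhibitors *Parp16* was -0.0396 without IWR-1 replicate 1. For XAV939 against knockdown *Parp1* was -0.0108 (GC), -0.0106 with the block added and -0.032 without XAV939 replicate 2; *Parp4* was 0.0166 without DMSO replicate 3; *Parp6* was 0.0068 with upper-quartile scaling and 0.0264 without XAV939 replicate 3; *Parp8* was 0.014 with upper-quartile scaling and 0.0565 without siCtrl replicate 2. For IWR-1 against knockdown *Parp4* was -0.0397 and *Parg* -0.0773 without DMSO replicate 2, and *Parg* was -0.0484 without siTnks/2 replicate 2. Over the fits that left out 1 library, these results ran from -0.0289 to 0.0204 (*Parp1*), -0.0188 to 0.0255 (*Parp4*) and -0.0665 to 0.082 (*Parg*) for knockdown; from -0.0176 to 0.1245 (*Parp1*), -0.2643 to 0.0222 (*Parp4*) and -0.0669 to 0.1205 (*Parp6*) for XAV939; from -0.5077 to 0.47 (*Tnks*) and -0.0387 to 0.1537 (*Parg*) for IWR-1; and from -0.0396 to 0.1636 (*Parp16*) between the inhibitors. For XAV939 against knockdown they ran from -0.032 to 0.1358 (*Parp1*), -0.2895 to 0.0166 (*Parp4*), -0.1614 to 0.0264 (*Parp6*) and -0.1561 to 0.0565 (*Parp8*), and for IWR-1 against knockdown from -0.0397 to 0.2889 (*Parp4*) and -0.0773 to 0.1507 (*Parg*).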
